A study of Homo sapiens with 4 samples.

Results

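PAGE and XAGE genes are X-linked members of the GAGE superfamily of cancer/testis antigens, a group of genes that are normally transcribed in testis or placenta and that many tumours transcribe again. They encode small, acidic and largely disordered proteins, and peptides of several members are presented to T cells by tumour cells. In most somatic cells the promoters of such genes carry CpG methylation, and loss of that methylation is a known route to their transcription. 11 PAGE and XAGE genes were taken as every gene whose probe sets carry only symbols that start with PAGE or XAGE and a number. They were measured by 15 of the 33297 probe sets of the array, which hold 10 distinct rows of values: 5 probe sets that name both XAGE1A and XAGE1B share 1 row, and 2 probe sets that name XAGE2 share another. XAGE1A and XAGE1B therefore have 1 joint value, and the other 9 rows name 1 gene each.

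The samples were 2 arrays of HCT116 cells given 1 µM 5-aza-2'-deoxycytidine (5aza) and 2 arrays of HCT116 cells given vehicle. HCT116 is an established cell line from a human colorectal carcinoma. 5-aza-2'-deoxycytidine, or decitabine, is a cytosine analog that is incorporated into DNA and traps DNA methyltransferases. Medium with the drug was added 24 hours after seeding and renewed 48 hours later, and RNA of both groups was taken at 72 hours after the first dose. Each group is 1 line at 1 dose and 1 time, and the labels do not say whether replicates 1 and 2 were separate cultures, so p-values cover only the variation between the arrays at hand, part or all of which may be technical.

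Levels are log2 RMA values as deposited, so a difference of 1 is a 2-fold change. Array medians were 5.84 on both 5aza arrays and lay between 5.72 and 5.73 on the vehicle arrays. Of 8 colorectal epithelial markers, EPCAM, CDH1, KRT8, KRT18, KRT19 and CDX2 had levels between 8.40 and 13.33 on 5aza arrays and between 7.74 and 13.03 on vehicle arrays, whereas VIL1 and CDH17 stayed between 3.79 and 4.79 on 5aza arrays and between 3.64 and 4.40 on vehicle arrays. Of the 6 fibroblast, 3 leukocyte and 4 endothelial markers measured, the endothelial PECAM1 and the leukocyte gene CD14 rose in limma's test (adjusted p = 0.0167 and 0.00990). Over all rows, 5.88% rose in this test. The endothelial KDR was lower, with 3.92 and 3.79 on 5aza arrays against 4.29 and 4.52 on vehicle arrays (limma adjusted p = 0.0687). The endothelial CDH5 and VWF had higher means with 5aza and were not called (limma adjusted p = 0.403 and 0.135). EPCAM, an epithelial adhesion gene, fell, with 11.14 and 11.04 on 5aza arrays against 11.79 and 11.82 on vehicle arrays (log2 difference -0.72, adjusted p = 0.0228). The mean level of the epithelial list was 9.65 and 9.75 on 5aza arrays against 9.49 and 9.54 on vehicle arrays. The mean level of the endothelial list was 5.02 and 4.88 on 5aza arrays against 4.45 and 4.58 on vehicle arrays. That of the leukocyte list was 4.67 and 4.46 on 5aza arrays against 3.74 and 3.92 on vehicle arrays, and that of the fibroblast list was 4.49 and 4.56 on 5aza arrays against 4.36 and 4.37 on vehicle arrays. The part of these markers in the results was not tested. In such bulk RNA, more cells that transcribe a gene and more RNA per cell cannot be told apart.

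7 of the 10 PAGE and XAGE rows rose with 5aza and 0 fell in limma's test (at an unadjusted p under 0.05, 7 rows were higher and 0 lower, against 3652 higher and 5828 lower of all 32626 rows). A rise or fall here is an adjusted p under 0.05 after Benjamini-Hochberg adjustment over all 32626 distinct rows, of which 5.88% rose and 6.43% fell. All rows include 11791 without a gene symbol. When only the 20835 rows with a symbol were fitted, 2564 rose and 3040 fell. The median log2 difference, 5aza minus vehicle, was 1.62 over the 10 rows and -0.09 over all rows. The rows ran from XAGE1A/XAGE1B, 46.0-fold higher, down to PAGE4 with a difference of -0.07. On 8 of the 10 rows both 5aza arrays lay above both vehicle arrays, which was so for 20.5% of all rows, and 59.2% of all rows had groups that did not overlap in either direction. XAGE2, PAGE3 and PAGE4 were not called. They were also the 3 rows whose mean over the 4 arrays fell in the dimmest 33.3% of rows. A rise with 5aza lifts this mean, so the match is partly built in. On vehicle arrays alone, the called PAGE2 and XAGE5 had lower means (4.03 and 3.86) than the uncalled XAGE2 (4.31). The deposited values come without detection calls. Whether RNA of XAGE2, PAGE3 and PAGE4 was present below what these probes measure was therefore not determined.

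**Figure D1:**
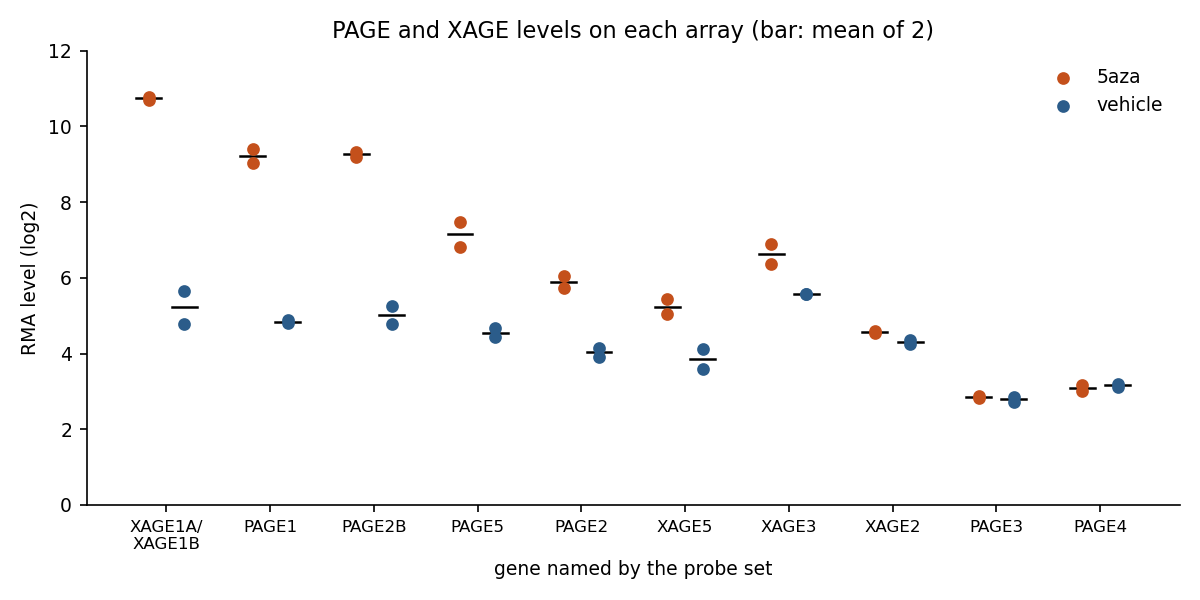
RMA level (log2) of each PAGE and XAGE row on each of the 2 5aza and 2 vehicle arrays (points) with the group means (bars), ordered by log2 difference. The points of the groups are apart by 5.04 log2 units for XAGE1A/XAGE1B and overlap for PAGE3 and PAGE4.

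The promoter windows that follow are those of the genes at the ends of this order, shown because the row of XAGE1A had the highest rise and that of XAGE3 the smallest rise that passed the test, while XAGE2, PAGE3 and PAGE4 did not pass. Each runs from 250 bases before to 50 bases after the start in the direction of transcription, for the most upstream start listed, from RefSeq on GRCh38.p14. CpG dinucleotides, the main sites of DNA methylation in human cells, are in capitals. The windows lie at chrX:52495558-52495857 (XAGE1A, plus strand), chrX:52868034-52868333 (XAGE3, minus strand), chrX:52368771-52369070 (XAGE2, plus strand), chrX:55264867-55265166 (PAGE3, minus strand) and chrX:49829010-49829309 (PAGE4, plus strand).
XAGE1A: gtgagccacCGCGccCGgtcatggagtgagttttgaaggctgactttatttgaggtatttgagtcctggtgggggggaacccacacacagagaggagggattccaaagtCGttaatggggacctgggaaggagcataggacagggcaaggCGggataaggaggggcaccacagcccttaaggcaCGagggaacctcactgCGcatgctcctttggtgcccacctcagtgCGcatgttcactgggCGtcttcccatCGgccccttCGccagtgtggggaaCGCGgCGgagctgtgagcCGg
XAGE3: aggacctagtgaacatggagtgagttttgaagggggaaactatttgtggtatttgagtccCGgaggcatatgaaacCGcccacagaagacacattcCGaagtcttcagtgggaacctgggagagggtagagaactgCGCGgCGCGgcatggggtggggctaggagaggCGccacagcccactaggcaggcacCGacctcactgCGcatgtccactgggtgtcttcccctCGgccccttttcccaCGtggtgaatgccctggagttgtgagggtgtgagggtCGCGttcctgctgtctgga
XAGE2: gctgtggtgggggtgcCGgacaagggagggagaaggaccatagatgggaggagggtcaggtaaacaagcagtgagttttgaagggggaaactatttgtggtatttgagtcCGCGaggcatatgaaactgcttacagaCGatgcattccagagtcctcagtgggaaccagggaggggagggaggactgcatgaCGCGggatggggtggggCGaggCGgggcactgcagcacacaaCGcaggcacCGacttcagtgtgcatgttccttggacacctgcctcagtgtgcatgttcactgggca
PAGE3: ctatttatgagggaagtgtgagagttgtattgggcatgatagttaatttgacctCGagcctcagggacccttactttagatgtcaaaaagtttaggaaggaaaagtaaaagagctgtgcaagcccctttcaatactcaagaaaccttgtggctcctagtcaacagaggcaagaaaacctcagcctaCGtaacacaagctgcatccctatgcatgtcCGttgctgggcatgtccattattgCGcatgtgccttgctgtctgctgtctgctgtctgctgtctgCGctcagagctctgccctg
PAGE4: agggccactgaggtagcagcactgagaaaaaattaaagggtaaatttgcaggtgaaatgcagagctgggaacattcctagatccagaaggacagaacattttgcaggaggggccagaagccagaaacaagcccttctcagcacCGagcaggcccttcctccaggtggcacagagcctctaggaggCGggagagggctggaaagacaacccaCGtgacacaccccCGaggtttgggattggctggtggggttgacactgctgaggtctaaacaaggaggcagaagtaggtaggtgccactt

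These windows held 15 CpG for XAGE1A, 14 for XAGE3, 10 for XAGE2, 5 for PAGE3 and 4 for PAGE4. Over the 8 genes whose rows rose, the count ran from 8 (XAGE5) to 15 (XAGE1A and XAGE1B) with a median of 13.0. Over the 3 genes that were not called it ran from 4 to 10 with a median of 5.0. The windows are placed by annotated starts and need not cover matching stretches. Bases like those around -49 in XAGE3 lie around 3 in XAGE2. The windows of the further starts of XAGE5 and XAGE3 held 5 CpG each. Further starts are also listed for XAGE1A (17 CpG), XAGE1B (17 and 14) and the uncalled PAGE4 (5). The median over the most upstream windows of 27303 genes was 13.0, with quartiles of 3.0 and 28.0, and all 11 genes, called or not, lay between these quartiles. The counts of XAGE2 and PAGE5 were both 10, although the PAGE5 row rose and the XAGE2 row was not called. Methylation itself was not measured in these samples.

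XAGE1A and XAGE1B are near-identical neighbours, and XAGE1 RNA is known from normal testis, Ewing sarcoma and alveolar rhabdomyosarcoma. Their joint row had 10.78 and 10.70 on the 5aza arrays, against 4.77 and 5.66 on the vehicle arrays. Both 5aza values were high and close together, and the vehicle values differed by more than on any other member row. The means were 10.74 ± 0.05 in 5aza cells and 5.22 ± 0.63 in vehicle cells (SD, n = 2 each), a log2 difference of 5.52 (SE 0.31, limma adjusted p = 0.00155) or 46.0-fold with a 95% interval of 26.4-fold to 80.1-fold. 1 of the windows listed for XAGE1A is identical to 1 of those of XAGE1B, and the table names both genes for each of the 5 probe sets, so the share of each gene in the rise is not known.

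PAGE1, PAGE2B, PAGE5 and PAGE2 are testis-type antigens of the PAGE branch, and all 4 rows rose. PAGE1 had 9.41 and 9.04 on the 5aza arrays, against 4.80 and 4.88 on the vehicle arrays. It was 20.9-fold higher (95% interval 15.6-fold to 28.0-fold, SE 0.16 on the log2 scale, adjusted p = 0.000540 in limma's test). The groups were 4.16 log2 units apart at their nearest arrays. PAGE2B had 9.32 and 9.19 on the 5aza arrays, against 4.79 and 5.26 on the vehicle arrays, 18.8-fold higher (13.4-fold to 26.5-fold, adjusted p = 0.000943). PAGE5 had 6.82 and 7.47 on the 5aza arrays, against 4.67 and 4.44 on the vehicle arrays, 6.03-fold higher (3.87-fold to 9.40-fold, adjusted p = 0.00682). The groups did not overlap for either gene, and the 5aza arrays of PAGE5 were further apart than those of any other member row. Without vehicle replicate 2 the PAGE5 difference was 2.48 with an adjusted p of 0.0508.

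PAGE2 is the close paralog of PAGE2B and lies next to it. It had 5.74 and 6.06 on the 5aza arrays, against 4.15 and 3.91 on the vehicle arrays, 3.65-fold higher (2.71-fold to 4.93-fold, adjusted p = 0.00568). The excess of the PAGE2B row over the PAGE2 row, taken within each array, was 3.59 and 3.14 on the 5aza arrays, against 0.64 and 1.35 on the vehicle arrays. The excess differed by 2.37 between the groups on the log2 scale. An exact two-sided permutation test of 2 arrays against 2 cannot go below its p of 0.333, so it could not decide on this difference. No other test of the difference was run, and the vehicle level of PAGE2 was dim. The rows are separate probe sets, and cross-hybridization between the paralogs was not assessed, so the values of both are uncertain. The promoter windows of the pair are shown because 81.3% of their aligned columns were identical, at chrX:55074780-55075079 (PAGE2B, plus strand) and chrX:55088768-55089067 (PAGE2, plus strand), with CpG in capitals.
PAGE2B: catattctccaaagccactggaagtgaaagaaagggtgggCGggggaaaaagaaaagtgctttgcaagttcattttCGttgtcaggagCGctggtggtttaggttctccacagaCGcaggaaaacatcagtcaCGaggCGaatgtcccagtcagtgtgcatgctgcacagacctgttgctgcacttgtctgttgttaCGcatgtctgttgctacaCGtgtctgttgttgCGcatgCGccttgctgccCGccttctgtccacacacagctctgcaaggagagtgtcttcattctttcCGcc
PAGE2: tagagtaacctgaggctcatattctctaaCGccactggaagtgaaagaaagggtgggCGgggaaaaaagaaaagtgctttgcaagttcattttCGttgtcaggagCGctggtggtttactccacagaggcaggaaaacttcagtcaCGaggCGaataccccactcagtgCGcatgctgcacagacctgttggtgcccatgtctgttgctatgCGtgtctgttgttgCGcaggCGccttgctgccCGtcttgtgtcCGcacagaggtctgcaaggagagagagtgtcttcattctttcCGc

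PAGE2B held 12 CpG and PAGE2 held 13. The window of PAGE5 was 70.4% identical to that of PAGE2 and 63.4% identical to that of PAGE2B. Among the XAGE genes, XAGE5 was 71.7% identical to XAGE1A in this window, and XAGE3 was 67.6% identical to PAGE1. Windows of XAGE1A and XAGE1B with the most upstream start are offset from each other and aligned at 91.7%.

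XAGE5 and XAGE3 had the smallest rises that passed the test. XAGE3, also known as PLAC6, is a gene of placenta. It had 6.90 and 6.37 on the 5aza arrays, against 5.58 and 5.57 on the vehicle arrays, 2.08-fold higher (1.46-fold to 2.98-fold, SE 0.20 on the log2 scale, adjusted p = 0.0361 in limma's test). XAGE5 had 5.43 and 5.03 on the 5aza arrays, against 3.60 and 4.12 on the vehicle arrays, 2.60-fold higher (1.70-fold to 3.98-fold, SE 0.24, adjusted p = 0.0293). The groups did not overlap for either gene, with nearest arrays 0.79 log2 units apart for XAGE3 and 0.92 for XAGE5. The XAGE3 call was lost without vehicle replicate 1 (difference 1.06, adjusted p = 0.177) and without vehicle replicate 2 (1.06, adjusted p = 0.172). The XAGE5 call was lost with any single array left out: the adjusted p was 0.0831 without 5aza replicate 1, 0.0660 without 5aza replicate 2, 0.133 without vehicle replicate 1 and 0.0656 without vehicle replicate 2.

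XAGE2, PAGE3 and PAGE4 did not pass the test. XAGE2, a gene of placenta, had 4.55 and 4.59 on the 5aza arrays, against 4.25 and 4.37 on the vehicle arrays. Both 5aza values were above both vehicle values, by 0.19 at the nearest arrays, and the difference of 0.26 (SE 0.11) had an adjusted p of 0.207 and a 95% interval of -0.03 to 0.55. PAGE4 encodes a disordered protein of prostate and uterus, where it is known as a stress-response protein. It had 3.17 and 3.01 on the 5aza arrays, against 3.20 and 3.11 on the vehicle arrays, a difference of -0.07 with a 95% interval of -0.38 to 0.24 (adjusted p = 0.750). PAGE3 had 2.83 and 2.89 on the 5aza arrays, against 2.72 and 2.86 on the vehicle arrays, a difference of 0.07 with a 95% interval of -0.23 to 0.37 (adjusted p = 0.731). The arrays of the groups overlapped for PAGE4 and PAGE3. On this scale the upper bounds are 1.18-fold for PAGE4, 1.30-fold for PAGE3 and 1.47-fold for XAGE2, and RMA compresses changes of rows near background.

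**Figure D2:**
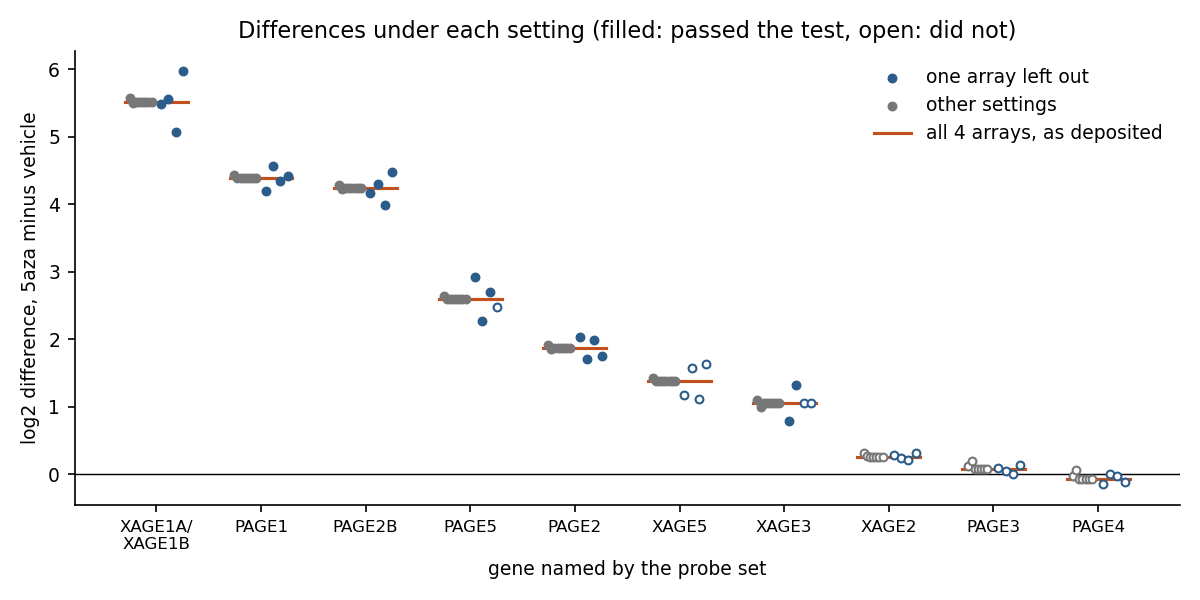
Log2 difference, 5aza minus vehicle, of each PAGE and XAGE row with all 4 arrays as deposited (line), with 1 array left out (blue points) and under the other settings (grey points). Filled points passed limma's test at an adjusted p under 0.05, and open points did not. XAGE2, PAGE3 and PAGE4 are open in every setting. Of the rows called with all arrays, XAGE5 is open for every array left out. XAGE3 is open without either vehicle array and PAGE5 without vehicle replicate 2.

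Among all 32626 rows ordered by log2 difference, XAGE1A/XAGE1B had rank 51, PAGE1 rank 106 and PAGE2B rank 118. PAGE5 had rank 314, PAGE2 rank 581, XAGE5 rank 860 and XAGE3 rank 1203. The vehicle means of PAGE2 (4.03) and XAGE5 (3.86) lay below 4.47, the boundary of the dimmest 33.3% of rows, where RMA compresses differences, so these ranks describe the deposited values only. XAGE2 had rank 5171, so that 84.2% of rows had a lower difference, and PAGE4 had rank 15255.

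The GAGE genes, the testis germ cell antigens that give the superfamily its name, were measured by 3 rows that each name several near-identical copies. All 3 rose. The row that names GAGE12B, GAGE12J and GAGE13 had 11.86 and 11.95 on the 5aza arrays, against 2.83 and 3.59 on the vehicle arrays. Its difference of 8.70 (SE 0.27, limma adjusted p = 0.000394), or 416-fold with a 95% interval of 257-fold to 674-fold, had rank 1 of all 32626 rows. The vehicle mean of this row, 3.21, lay below 4.47, the boundary of the dimmest 33.3% of rows, so the size of the fold and its rank hold on the RMA scale only. The row with 11 GAGE symbols had 12.37 and 12.89 on the 5aza arrays, against 6.69 and 6.43 on the vehicle arrays, 67.3-fold higher. The row with 13 GAGE symbols had 12.02 and 12.35 on the 5aza arrays, against 5.77 and 5.22 on the vehicle arrays, 104-fold higher. Both had an adjusted p of 0.000511 or less. These rows share gene copies, so they are not independent measurements, and whether the GAGE rows differ in fold from the PAGE and XAGE rows was not tested.

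**Figure D3:**
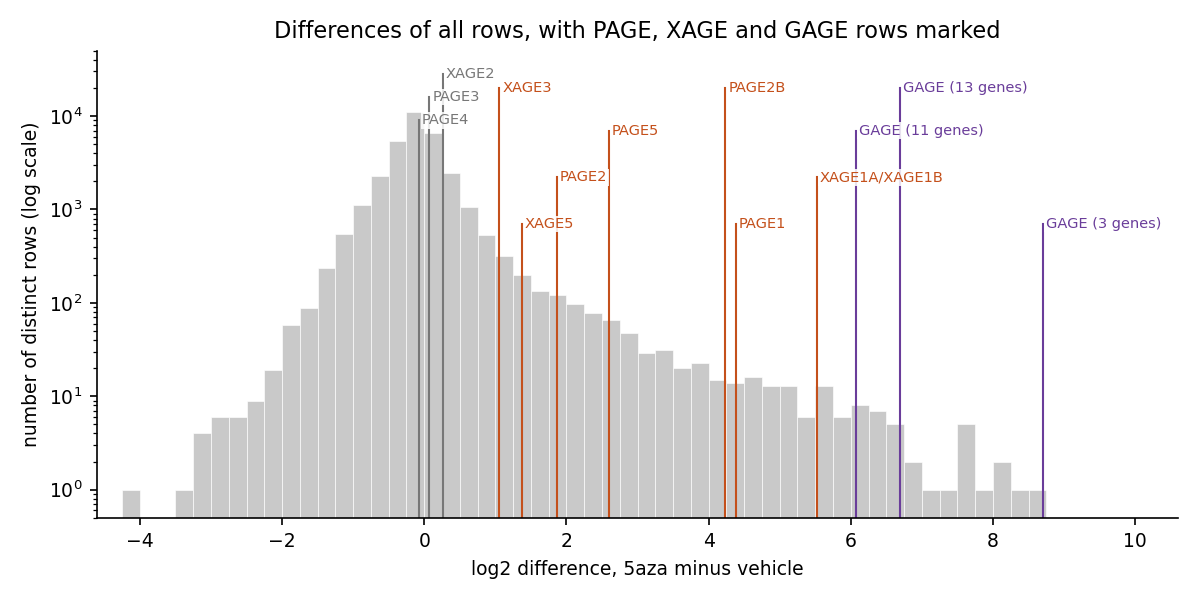
Number of distinct rows (log scale) by log2 difference, 5aza minus vehicle, in bins 0.25 wide, with the PAGE and XAGE rows that rose (orange), those not called (grey) and the GAGE rows (purple) marked. 3 rows sit in the bulk near 0, the called PAGE and XAGE rows lie between 1.06 and 5.52, and the GAGE rows lie between 6.07 and 8.70.

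On chromosome X the 11 genes lie in 3 stretches of the same region. In RefSeq gene order, PAGE1 and PAGE4 follow the GAGE cluster and are next to each other. After 17 other protein-coding genes come XAGE2, XAGE1A and XAGE1B, then SSX7, SSX2, SSX2B and SPANXN5, and then XAGE5 and XAGE3. After another 23 come PAGE2B and PAGE2, then VCF2, and then PAGE5 and PAGE3. In each stretch called and uncalled genes were adjacent: PAGE1 beside PAGE4, the XAGE1 pair beside XAGE2, and PAGE5 beside PAGE3.

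The 21 nearest other protein-coding genes with a row of their own, up to 3 on each side of each member, were taken from in the same fit. Of these, 4 rose and 3 fell, against 5.88% and 6.43% of all rows, and their median difference was 0.06. All neighbours have a gene symbol, whereas all rows include 11791 without one. When only the 20835 rows with a symbol were fitted, 2564 rose and 3040 fell, among them 5 and 4 of the 21 neighbours. GSPT2, a translation termination factor, lies on the XAGE2 side and had 7.85 and 7.11 on the 5aza arrays, against 5.04 and 4.85 on the vehicle arrays (5.78-fold, adjusted p = 0.00897). SSX7, a gene of the SSX antigen family whose copies are also near-identical, had 6.22 and 7.04 on the 5aza arrays, against 5.13 and 4.88 on the vehicle arrays (3.09-fold, adjusted p = 0.0331). MAGEH1, a ubiquitously expressed MAGE gene beyond PAGE3, rose 1.80-fold, and TSPYL2, a nucleosome assembly protein gene beyond XAGE3, rose 1.68-fold. Each of the 4 had 5aza arrays above both vehicle arrays. This was so for 8 of the 21 neighbours and for 20.5% of all rows, and 5 neighbours had both 5aza arrays below both vehicle arrays.

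The 3 falls included VCF2, which stands between PAGE2 and PAGE5. It had 6.29 and 6.52 on the 5aza arrays, against 7.32 and 7.50 on the vehicle arrays, 2.02-fold lower (log2 difference -1.01, adjusted p = 0.0181), while both of its PAGE neighbours rose. PFKFB1, a bifunctional enzyme of fructose 2,6-bisphosphate metabolism, was 1.83-fold lower (adjusted p = 0.0183), and PPP1R3F, a targeting subunit of protein phosphatase 1, was 1.52-fold lower (adjusted p = 0.0312). SPANXN5, an antigen gene between SSX2B and XAGE5, had 2.77 and 2.90 on the 5aza arrays, against 2.95 and 2.85 on the vehicle arrays, and was not called (adjusted p = 0.741). None of the 7 neighbour calls was kept without vehicle replicate 1 or without vehicle replicate 2, where limma called 0 neighbours in either direction. Without 5aza replicate 2 there were 2 rises and 2 falls. At an unadjusted p under 0.05 and with all arrays, 7 neighbours lay above and 4 below vehicle, against 3652 above and 5828 below among all 32626 rows.

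**Figure D4:**
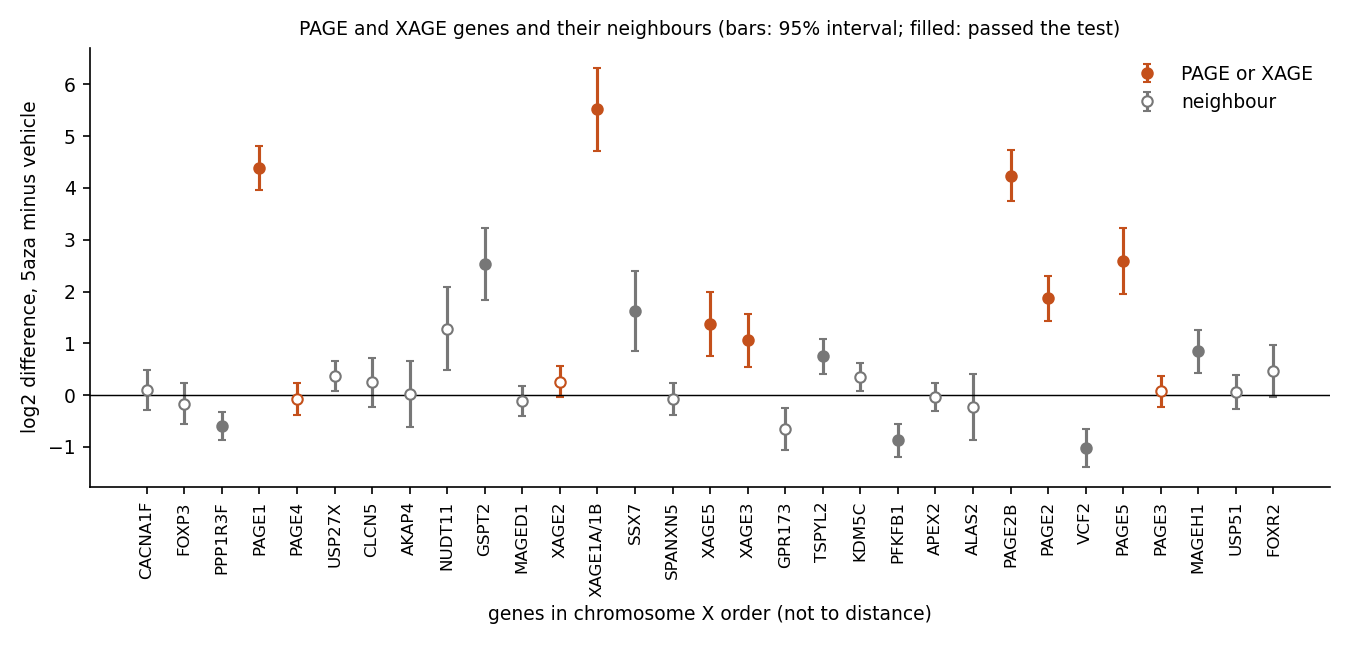
Log2 difference, 5aza minus vehicle, with 95% intervals for the PAGE and XAGE rows (orange) and their 21 neighbours (grey) in chromosome X order, filled where limma's adjusted p was under 0.05. PAGE1 (4.39), XAGE1A/XAGE1B (5.52) and PAGE2B (4.23) stand above every neighbour drawn. PAGE5 (2.59) is just above the highest neighbour, GSPT2 (2.53), while VCF2 (-1.01) lies below 0 between PAGE2 and PAGE5.

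Short motifs were counted on both strands of the windows. GGAA, the core of ETS factor sites, was in all 11 genes, as in 95.5% of the most upstream windows of all genes. GGGCGG, the core of SP1 sites, was in 4 of the 8 genes whose rows rose (PAGE2, PAGE2B, PAGE5 and XAGE3) and in 0 of the 3 others, against 44.5% of all genes. A further 6-letter palindrome, TGCGCA, was noticed in the printed windows and counted after that. It was in all 8 genes whose rows rose and in PAGE3, and not in XAGE2 or PAGE4, against 8.45% of all genes. In those 9 genes it lay within the 100 bases before the start, as in 4.19% of all genes. The motif and this limit were both set after the windows were seen, so these shares only describe and test nothing. These counts are for the most upstream start, and the windows of the further starts of XAGE5 and XAGE3 held no TGCGCA. XAGE1A and XAGE1B both count among the 8 although they share a row. Since the families arose by duplication, the members are not independent instances of the motif. The match nearest the start is shown for each gene but XAGE1B, whose letters equal those of XAGE1A, with the 9 bases on each side, TGCGCA in capitals, and with the position of its first base relative to the start.
XAGE1A at -23: ccacctcagTGCGCAtgttcactg
XAGE5 at -23: cctccttagTGCGCAtgttcattg
XAGE3 at -49: cgacctcacTGCGCAtgtccactg
PAGE1 at -47: tagcctcagTGCGCAtgttcactg
PAGE2B at -23: gtctgttgtTGCGCAtgcgccttg
PAGE5 at -23: atctgttgcTGCGCAtgcgccttt
PAGE2 at -26: gtctgttgtTGCGCAggcgccttg
PAGE3 at -12: gtccattatTGCGCAtgtgccttg

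The lines fall into a set with XAGE1A, XAGE5, XAGE3 and PAGE1 and a set with PAGE2B, PAGE5, PAGE2 and PAGE3. The 8 letters TGCGCATG were in the same 9 genes, against 2.28% of all genes. XAGE2 holds TGTGCATG 2 times just after its annotated start. It differs from TGCGCATG by C3T, counted from 1 at the 5′ end, and so lacks the CpG. PAGE2B, which rose, has the same letters once, further upstream of its TGCGCATG. TGTGCATG was in 0.886% of all genes. These 3 matches are shown in capitals with their flanks.
XAGE2 at 3: cgacttcagTGTGCATGttccttgga
XAGE2 at 32: ctgcctcagTGTGCATGttcactggg
PAGE2B at -96: cccagtcagTGTGCATGctgcacaga

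**Figure D5:**
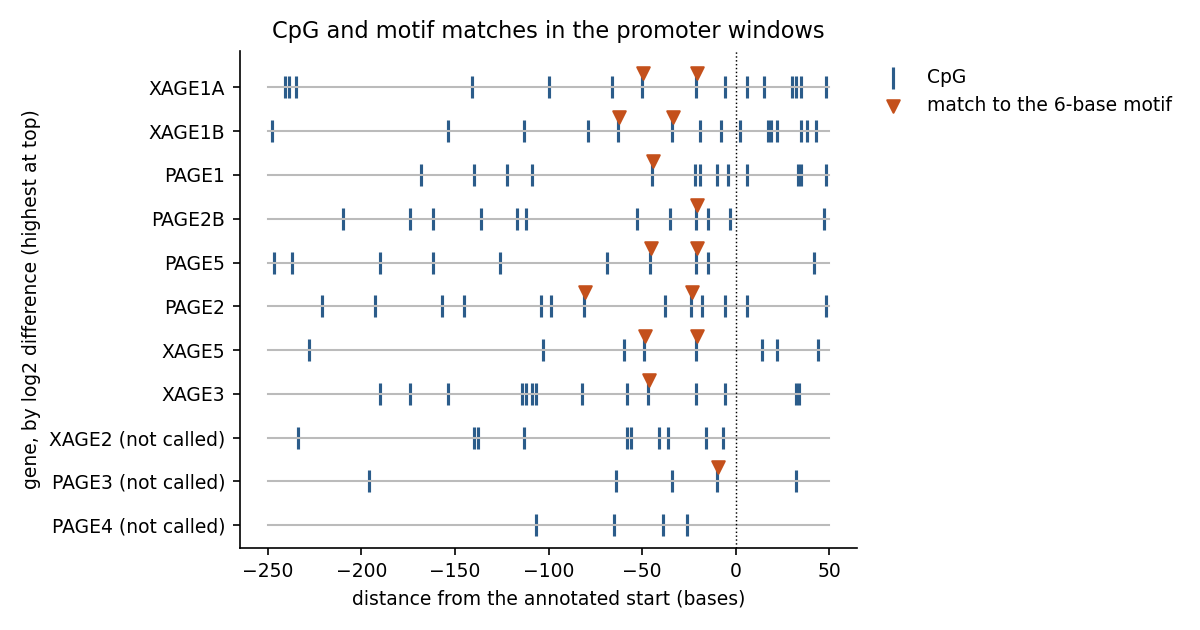
Positions of CpG (blue ticks) and of matches to TGCGCA (orange triangles) in the most upstream promoter window of each gene, by distance from the annotated start in bases, ordered by log2 difference with the highest at the top. XAGE2 and PAGE4 have no triangle, and PAGE3 and PAGE4 have the fewest ticks, 5 and 4.

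The genes outside the family whose 4 array values lay closest to those of a called member were found by the root mean square (RMS) difference in log2 level among 18964 rows with 1 symbol. Levels of different probe sets are not comparable as RNA amounts, so likeness here is of array values only. PAGE1 was closest to RAB34, a small GTPase gene (RMS 0.23), and to STMN2, a neuronal tubulin-binding protein gene (0.24). PAGE2B was closest to RAB34 (0.25) and NFE4 (0.26). PAGE5 was closest to PTPN7, a tyrosine phosphatase gene (0.17), and to LEF1, a transcription factor of WNT signaling (0.21). PAGE2 was closest to RPL39L, the testis-enriched paralog of a ribosomal protein gene (0.0945), and to BICC1, an RNA-binding protein gene (0.13). XAGE5 was closest to BMPR1B, a bone morphogenetic protein receptor gene (0.13), and HAVCR1 (0.14). XAGE3 was closest to the chemokine gene CCL26 (0.11) and the fibulin gene EFEMP2 (0.12). CCL26 itself did not pass limma's test (adjusted p = 0.0702). RPL39L had 5.89 and 6.05 on the 5aza arrays, against 4.04 and 3.88 on the vehicle arrays, and it differed most from PAGE2 on 5aza replicate 1.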

How the data were processed

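Per the labels' protocols, biotin-labelled sense-strand cDNA of each sample was hybridized to an array of its own. The authors deposited log2 values that they made with RMA in Affymetrix Expression Console, per the submitters' processing notes. RMA includes quantile normalization, so a change of total RNA per cell is not visible, and it compresses changes near background. The genome build is not given in the sources used here. The precision is limited by 2 arrays per group.

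Genes were named through the platform annotation table. Of 33297 probe sets, 671 repeated another exactly and were left out, and of the 32626 kept, 11791 had no symbol. All 11 member genes matched RefSeq on GRCh38.p14, used for gene order and promoters. Proteins were not analysed here.

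A linear model without covariates was fitted to every distinct row (R 4.3.3, limma 3.58.1), its variances were moderated by empirical Bayes, and two-sided p-values of 5aza against vehicle were adjusted by Benjamini-Hochberg, with a threshold of 0.05. The fit was also tested on simulated arrays. Windows were aligned with Biopython 1.88 in Python 3.11.15. Alternatives were housekeeping centring (16 of 20 listed genes), repeated quantile normalization, a replicate block, a filter on the dimmest 33.3% of rows, other sets of rows, other variance priors and leaving out each array. The text names all members and GAGE rows, the called neighbours, and the 2 closest rows of each called member with a row to itself. SPANXN5, the levels of RPL39L, the promoters of PAGE2B and PAGE2 and the motifs TGCGCA, TGCGCATG and TGTGCATG were chosen after values or sequences were seen. The members and lists were chosen with earlier results of these data known.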

Additional observations from a re-analysis of the deposited data

How the results depend on the processing

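In the 8 settings that keep all 4 arrays (housekeeping centring, repeated quantile normalization, the replicate block, the filter on dim rows, rows with a symbol only, repeated rows kept, a variance trend and a robust prior), limma called 7 rises and 0 falls among the PAGE and XAGE rows and 3 rises and 0 falls among the GAGE rows. XAGE5 passed narrowly with the replicate block (limma adjusted p = 0.0493), and XAGE3 did so after repeated quantile normalization (0.0434). The filter on dim rows used the mean over all 4 arrays, which a rise lifts. It left out XAGE2, PAGE3 and PAGE4. It kept PAGE2, XAGE5 and the row of GAGE12B, GAGE12J and GAGE13, whose vehicle means (4.03, 3.86 and 3.21) lay below its boundary of 4.47. This setting is therefore not an independent check of the rises. With 1 array left out, the PAGE and XAGE rises numbered 4 to 6 and the falls 0 to 0. They were 6 without 5aza replicate 1, 6 without 5aza replicate 2, 5 without vehicle replicate 1 and 4 without vehicle replicate 2. In these fits 1 group has a single array, which is assumed to vary like the others. The neighbours then had 0 to 3 rises and 0 to 2 falls, and all rows 624 to 1604 rises and 126 to 1857 falls, against 1918 and 2098 with all arrays. The loss of calls over all rows was larger without either vehicle array than without either 5aza array, and its causes were not tested. With the replicate block the PAGE and XAGE rises were 7 and the neighbours had 5 rises and 4 falls. The replicate numbers are only names here, since the labels do not tie them to a shared culture, and the deviations of same-numbered arrays correlated at 0.176 across rows. Directions that turned were of rows without a call. After repeated quantile normalization PAGE4 was at 0.0701, SPANXN5 at 0.0651 and APEX2 at 0.0228, and with housekeeping centring APEX2 was at 0.0108. With 1 array left out PAGE4 ran from -0.15 to 0.00879, CACNA1F from -0.0102 to 0.21, FOXP3 from -0.34 to 0.00516, AKAP4 from -0.29 to 0.35, ALAS2 from -0.53 to 0.0624 and USP51 from -0.0342 to 0.16. Housekeeping centring moved the median of all rows by 0.05. Signal over background could not be judged for the 3 dimmest member rows, since the table has no detection calls.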

Other observations

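The probe set named XAGE-4, listed as a transcribed pseudogene on chromosome X in RefSeq, had 6.15 and 4.92 on the 5aza arrays, against 4.97 and 4.96 on the vehicle arrays. 5aza replicate 1 was high and 5aza replicate 2 lay below both vehicle arrays. The difference of 0.57 (SE 0.41) did not pass limma's test (adjusted p = 0.428).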
